A study of Saccharomyces cerevisiae with 22 samples.

Results

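The comparison described here is between budding yeast (Saccharomyces cerevisiae) whose histone H3 carried alanine in place of arginine at residue 40 (hht2-pm-R40A, called R40A below) and the matching control strain with unmutated H3 (hht2-wt). It rests on 4 of the 22 two-colour arrays of the series, chosen by their titles: cultures a and b of R40A and cultures a and b of hht2-wt. The series held 11 strains with 2 arrays each, and every strain was hybridised against one common reference RNA from a wild-type culture. Per the deposited protocols, cultures started from independent colonies were grown in synthetic complete medium with 2% glucose at 30 °C in plates with 24 wells and were harvested in mid-log phase at an OD600 of 0.6. Per the labels, all strains and the reference were BY4742, a laboratory haploid of mating type alpha, and the strain was in Cy3 on every culture a array and in Cy5 on every culture b array. The titles also carry a number, 2 for R40A and 1 for hht2-wt, whose meaning the sources used here do not give. Whatever it stands for cannot be told apart from the substitution.

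Histone H3 and its partners form the protein core around which DNA is wrapped in the nucleosome. Arginine 40 lies where the N-terminal tail of H3 passes out between the turns of DNA, close to the point at which DNA enters and leaves the particle. Yeast carries a pair of H3 genes, HHT1 and HHT2, and the labels place the substitution in HHT2. Genes near the chromosome ends, genes for alternative nutrients and stress genes are groups whose transcription in yeast is known to depend on chromatin.

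All values below are log2 values from the scanner intensities, after background correction and loess normalization within each array. A log2 ratio is the level in one strain over the reference on one array, and a log2 difference is R40A minus the strain it is compared with, ± the standard error of the limma fit. A gene was called where the adjusted p (Benjamini-Hochberg over all 6388 gene probes) was below 0.05, and "rose" and "fell" are used of called genes only. With 2 cultures a strain, the spread was estimated over all 22 arrays, so the p-values measure the spread between cultures of this series. Because culture and dye change together, each R40A culture is also set against the hht2-wt culture of the same letter and dye.

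Before any comparison of the mutant, the mating-type markers of the labelled strain went against the label in both strains. Relative to the reference, MFA1, an a-factor gene that alpha cells keep silent, read 4.21 and 4.53 in R40A a and b and 4.08 and 4.38 in hht2-wt a and b. MF(ALPHA)1, the main alpha-factor gene, read -5.84 and -5.05 in R40A and -5.63 and -5.23 in hht2-wt. The strains and the reference therefore differed in the transcripts of mating type, in the same direction in mutant and control. URA3, a gene deleted in BY4742, read between 3.85 and 4.16 on these 4 arrays. The strain's other auxotrophic markers were not all high on the 10 arrays of the other H3 mutants. There LEU2 ran from -0.24 to 0.04, LYS2 from -0.41 to -0.02, HIS3 from 0.85 to 1.43 and URA3 from 3.66 to 4.32. By limma, 0 of these 4 markers were called between R40A and hht2-wt. All 7 a-specific genes measured lay above the reference on these 4 arrays, from 1.79 (ASG7) to 4.96 (STE2), and all 4 alpha-specific genes below it, from -5.84 (MF(ALPHA)1) to -2.42 (SAG1). By limma, 0 of the 7 a-specific genes were called between R40A and hht2-wt, and 0 had an unadjusted p under 0.05. Of the 4 alpha-specific genes 2 were higher in R40A (50%, against 9.8% of all probes) and 0 lower. These were SAG1 (0.75) and STE3 (0.32), so the mutant and the control were not the same at all markers. The series text gives the opposite dye order for the first hybridisation, and the directions here follow the sample labels. If the order of the series text held for all arrays, the sign of every ratio and of every difference between strains would turn, and against hht2-wt 316 probes would be higher and 626 lower. In the authors' deposited table of results for R40A, 754 of the 884 probes called here and listed there were called in the same direction and 0 in the opposite one. That table rests on the same R40A arrays, so it is no separate set of cultures. Its column headers name these arrays but not the strain they were compared with. On these 4 arrays Pearson's r between raw scanner log2 ratios and the log2 ratios of the authors' value table was between 0.856 and 0.972. The raw ratios were taken before background correction and normalization. This r is across single gene spots, which are not independent replicates, and was not computed for the normalized values used here. On 3 of the 22 arrays that r was negative: -0.958 on L109A a, -0.943 on Q5A a and -0.921 on culture a of hhf2-wt, the H4 control strain. In the normalized ratios used here, turned by the labelled dyes, cultures a and b of each strain correlated positively (0.959 for Q5A and 0.941 for L109A). The direction of those 3 columns of the value table thus differs from that of the other 19, and each was turned before use.

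HHT2 itself read -1.94 and -2.05 in R40A and -2.03 and -2.21 in hht2-wt, a log2 difference of 0.12 ± 0.14 (adjusted p = 0.597). HHT1 (-0.03 ± 0.12), HHF1 (-0.02 ± 0.10) and HHF2 (0.04 ± 0.10), the second H3 gene and the pair of H4 genes, were also not called. A transcript level does not show a substitution of 1 residue, so these values are no check of the mutation. Of the 11 histone genes, HTB1, for H2B, was called and read 0.45 and 0.46 in R40A against 0.61 and 0.74 in hht2-wt (-0.22 ± 0.07, adjusted p = 0.043). That call was lost without R40A a, R40A b or hht2-wt b, and the difference without hht2-wt b was -0.14.

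R40A differed from hht2-wt at 942 of 6388 probes (14.7%), of which 626 were higher (9.8%) and 316 lower (4.95%). Counts of rises and falls in the gene lists below are to be read beside these 2 shares. The median log2 difference of the probes that rose was 0.37 and of those that fell -0.24, against 0.00 (-0.0049) over all probes. At least 2-fold changes were confined to rises: 17 probes rose and 0 fell by that much, while 122 rose and 6 fell by at least 1.5-fold. All 942 called probes moved in the direction of the call in both the a and the b pair of cultures. With R40A a left out the number called was 424, and without hht2-wt a or hht2-wt b it was 610 or 499. Where arrays were centred on the external control spots in place of loess, 102 probes rose and 0 fell by limma (412 and 14 at an unadjusted p under 0.05), so every fall named below was lost there. Of the called probes, 486 that rose and 283 that fell carry a gene name.

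**Figure D1:**
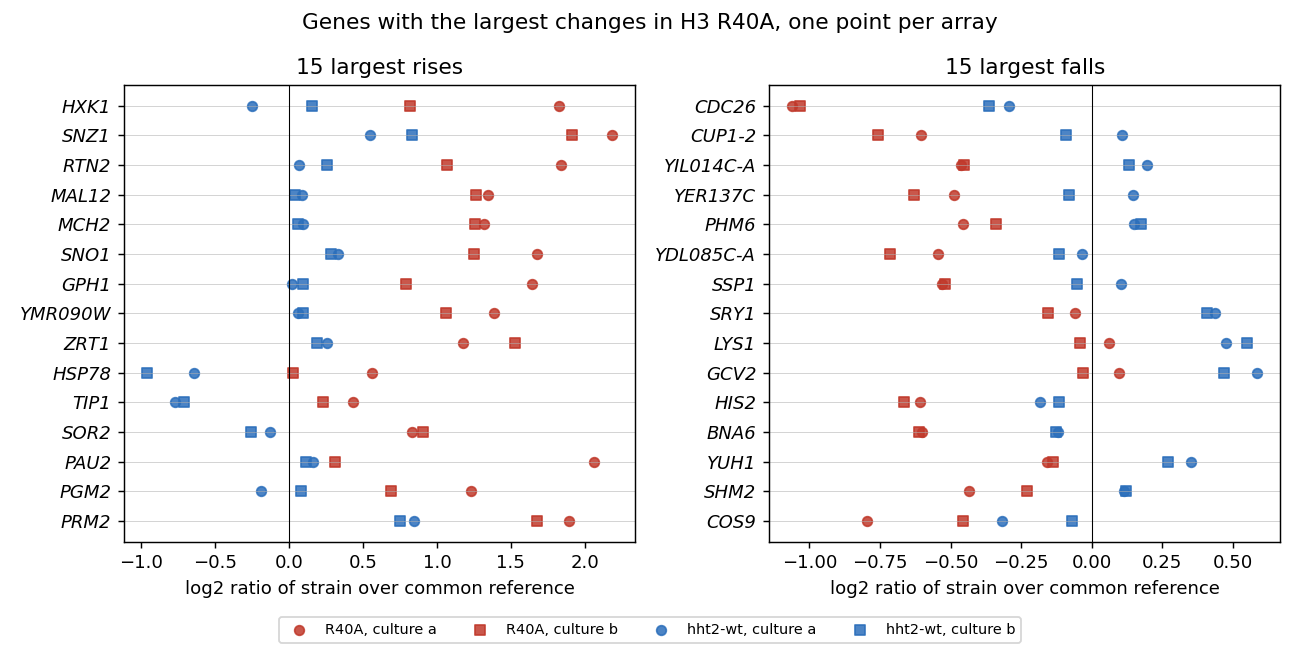
Log2 ratio of strain over common reference for the 15 named genes with the largest rise (left) and the largest fall (right) in R40A, with 1 point per array (red R40A, blue hht2-wt, circles culture a, squares culture b). HXK1 and PAU2 have R40A cultures far apart (1.82 and 0.82, 2.06 and 0.31), while MAL12, MCH2 and CDC26 have the cultures of each strain close together.

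The vitamin genes were among the largest rises. SNZ1, whose product forms the vitamin B6 synthase with that of SNO1, read 2.19 and 1.91 in R40A and 0.55 and 0.83 in hht2-wt, a log2 difference of 1.36 ± 0.13 (adjusted p = 1.44e-05). SNO1, its divergently transcribed neighbour, read 1.68 and 1.25 against 0.33 and 0.28 (1.16 ± 0.12, 1.87e-05). Both R40A cultures lay above both control cultures for each gene, which the rule for naming the largest rises required. SNZ3 (0.66 ± 0.09) and SNO2 (0.31 ± 0.08), members of the subtelomeric copies of this gene pair, rose by less, and SNO2 was not called without R40A a, hht2-wt a or hht2-wt b. In all 4 of 7 vitamin B6 genes measured rose (57.1%, against 9.8% of all probes) and 0 fell, with a list median of 0.31. With external control centring 3 rose.

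Thiamine genes rose beside them. THI11, a member of the family that makes the pyrimidine half-molecule of thiamine, read 1.20 and 1.08 in R40A and 0.21 and 0.13 in hht2-wt (0.97 ± 0.06, adjusted p = 3.85e-07). Its near-identical relatives may share signal on this probe. THI72, a transporter relative (0.63 ± 0.06), PET18 (0.55 ± 0.08), THI7, the thiamine transporter (0.50), and THI2, a transcriptional activator of the pathway (0.35 ± 0.06), also rose. The list had 7 of 14 measured members higher (50%, against 9.8% of all probes) and 0 lower, with a median of 0.29. With external control centring 2 rose. The cultures were alike, with list medians of 0.32 in the a pair and 0.25 in the b pair. Without any single array of the 4, between 6 and 7 members rose.

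Genes for the use of maltose and related sugars rose although the medium held glucose. MAL12, a maltase, read 1.34 and 1.26 in R40A and 0.09 and 0.04 in hht2-wt, a log2 difference of 1.24 ± 0.08 (adjusted p = 3.85e-07). MAL32, its near-identical copy on another chromosome, read 0.95 and 0.98 against -0.03 and 0.02 (0.97 ± 0.10), and IMA4, an isomaltase of the same family, read 0.96 and 0.73 against 0.03 and -0.10 (0.88 ± 0.09). The control cultures lay near the reference and both R40A cultures well above it. MAL33, a transcriptional activator of the maltose genes (0.41 ± 0.07), MAL11 (0.30) and MPH2 (0.27), which encode sugar transporters, rose too. Of 9 measured members, 6 rose (66.7%, against 9.8% of all probes) and 0 fell, and with external control centring 3 rose. The median was 0.30, with 0.35 in the a pair and 0.25 in the b pair, and 5 or 6 rose when any one of the 4 arrays was left out. MPH2 was the call that changed, without R40A a or hht2-wt a.

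Some transporters and enzymes for poor nitrogen sources rose, the largest rises with both R40A cultures above the control. UGA4, the permease for GABA, read 0.97 and 0.88 in R40A and 0.06 and -0.06 in hht2-wt (0.92 ± 0.07, adjusted p = 8.88e-07). DAL1, allantoinase, read 1.58 and 1.27 against 0.47 and 0.55 (0.91 ± 0.09), and DAL4, the allantoin permease, read 0.87 and 0.75 against -0.05 and -0.11 (0.89 ± 0.05). Each of these R40A values exceeded both control values. PUT1, for proline breakdown (0.41 ± 0.05), GDH2, for glutamate breakdown (0.43), and DUR3, the urea permease (0.33), also rose, and GLN1, glutamine synthetase, fell by 0.22. The call of GLN1 did not hold when any single one of the 4 arrays was left out, and that of GDH2 did not hold without R40A a or hht2-wt b (0.26 without hht2-wt b). The list of 24 measured members had 6 rises (25%) and 1 fall (4.17%), against 9.8% and 4.95% of all probes. The other 17 were not called. The list median was 0.09, with 0.07 in the a pair and 0.04 in the b pair.

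Other carbon genes rose more sparsely. MCH2, a relative of monocarboxylate transporters, read 1.32 and 1.26 in R40A and 0.09 and 0.06 in hht2-wt (1.21 ± 0.09, adjusted p = 1.22e-06). PCK1 (0.45 ± 0.06) and FBP1 (0.38 ± 0.07), which encode the enzymes particular to gluconeogenesis, and ADR1, an activator of ethanol-use genes (0.38), rose. Of the 26 members of the gluconeogenic list 0 fell and 7 rose (26.9%, against 9.8% of all probes). Without R40A a that number was 4, with median centring 3 and with external control centring 1, and ADR1 was not called without R40A a (0.25), hht2-wt a or hht2-wt b. For the peroxisome, 0 of 16 fell and 6 rose (37.5%). Among them were POX1, the first enzyme of fatty acid oxidation (0.47 ± 0.07), and PIP2, a transcription factor for those genes (0.50 ± 0.06). Hexose transporters rose at 4 of 13 (30.8%), HXT5 (0.46 ± 0.06) and HXT17 (0.43 ± 0.06) first. HXT9 and HXT11, which are near-identical to each other, rose by 0.25 ± 0.06 and 0.33 ± 0.08. HXT9 was not called without R40A a, hht2-wt a or hht2-wt b. Without R40A a or hht2-wt b 2 of the transporters rose, and without R40A a the difference of HXT11 was 0.21 and not called. With external control centring limma called 0 peroxisomal genes and 0 hexose transporters, with 5 and 3 higher at an unadjusted p under 0.05, and with median centring it called 4 and 1. REG2, a regulatory subunit of the Glc7 phosphatase, rose by 0.51 ± 0.05. By limma, 0 of 18 glycolytic genes and 0 of 34 nuclear oxidative phosphorylation genes were called, with medians of 0.0086 and 0.02. At an unadjusted p under 0.05 these counts were 0 and 2.

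Stress-response effectors moved together but differed between the R40A cultures. Of 50 measured, 27 rose (54.0%) and 0 fell, against 9.8% of all probes higher, and the list median was 0.39. RTN2, a reticulon-like membrane protein, read 1.84 and 1.07 in R40A and 0.06 and 0.26 in hht2-wt (1.29 ± 0.20, adjusted p = 0.000631). HSP78, a mitochondrial chaperone, read 0.56 and 0.02 against -0.65 and -0.96 (1.10 ± 0.18, 0.000766). In both genes culture a of R40A lay further above the control cultures than culture b did. HSP12, a small heat-shock protein that is a common readout of this response, read 1.97 in R40A a but 0.95 in R40A b, against 0.91 and 0.92 in hht2-wt, and was not called (0.55 ± 0.30, adjusted p = 0.244). The median over the list was 0.62 in the a pair and 0.22 in the b pair. Without R40A a, 9 members rose, without R40A b 36, and without hht2-wt a or b 15 or 16.

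Glycogen and trehalose genes behaved alike. GPH1, glycogen phosphorylase, read 1.64 and 0.79 in R40A and 0.02 and 0.10 in hht2-wt (1.16 ± 0.21, adjusted p = 0.00184). PGM2, the major phosphoglucomutase, read 1.23 and 0.69 against -0.19 and 0.08 (1.01 ± 0.18, 0.00183). GDB1, the debranching enzyme, rose by 0.62 ± 0.11, and TPS2 (0.65) and TSL1 (0.63), subunits of the trehalose synthase complex, rose as well. PGM1, the minor phosphoglucomutase, fell by 0.25 and was the 1 member that did. Of 20 members 2 rose with external control centring. With loess 11 rose (55%), with list medians of 0.51 in the a pair and 0.19 in the b pair. That number was 4 without R40A a and 5 without hht2-wt a, and without R40A a the differences of PGM2 and GDB1 were 0.65 and 0.40, both still called. TPS2 (0.28), TSL1 (0.25) and PGM1 (-0.21) were not called without R40A a, nor without hht2-wt a.

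HXK1, the hexokinase of cells short of glucose, had the largest rise of any named gene but a wide error. It read 1.82 and 0.82 in R40A and -0.25 and 0.16 in hht2-wt (1.37 ± 0.30, adjusted p = 0.00635). Without R40A a the difference was 0.86 and was not called (adjusted p = 0.12), and the call was also lost without hht2-wt a. The glucose-signalling list as a whole held 3 rises and 0 falls among 17 members (17.6% higher), with a median of 0.04.

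Of the lists with rises described here, the PAU genes showed the widest gap between the R40A cultures. These genes encode small cell wall proteins of the seripauperin family, most of them beside telomeres and many nearly identical, so that probes may read several copies. PAU2 read 2.06 in R40A a and 0.31 in R40A b, against 0.16 and 0.12 in hht2-wt (1.05 ± 0.32, adjusted p = 0.0427). PAU1 read 1.70 and 0.56 against 0.19 and 0.21 (0.93 ± 0.24, 0.0193), and PAU3 read 1.58 and 0.65 against 0.25 and 0.20 (0.89 ± 0.21, 0.00941). In each of these genes R40A b lay above the controls by far less than R40A a did. Of 22 family members measured, 15 rose and 0 fell, with a median of 0.60, but the median was 0.97 in the a pair and 0.22 in the b pair. Without R40A a or hht2-wt a limma called 0 members, with 2 and 15 higher at an unadjusted p under 0.05, and without hht2-wt b it called 2. Without R40A a the difference of PAU2 was 0.16, that of PAU1 0.36, that of PAU3 0.45 and that of PAU17 0.16, and without R40A b that of PAU2 was 1.94.

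**Figure D2:**
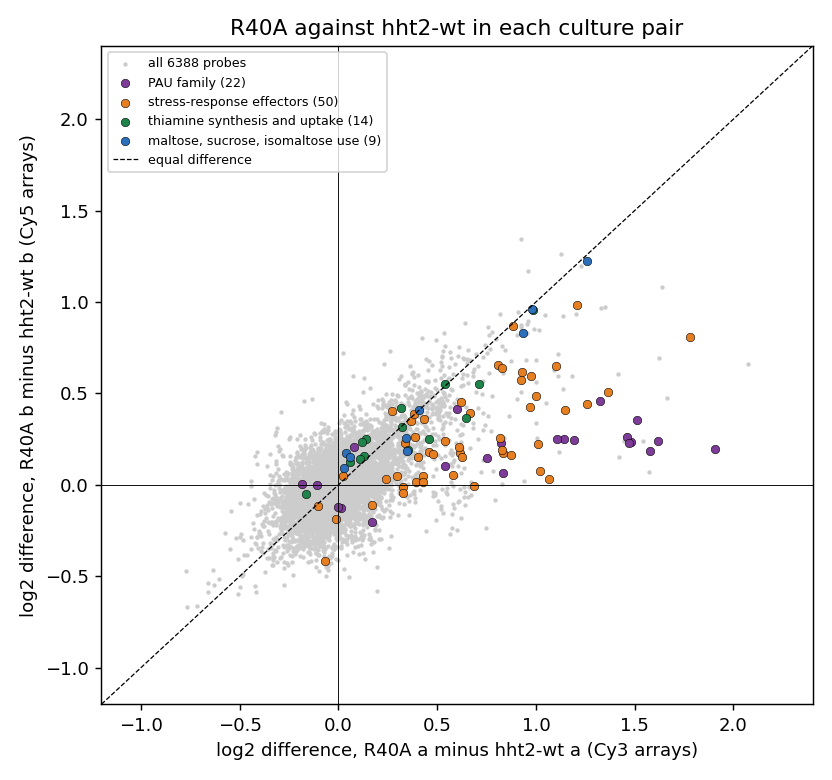
Log2 difference of R40A from hht2-wt in culture a (horizontal, both strains in Cy3) and culture b (vertical, both in Cy5) for all 6388 probes, with 4 gene lists coloured and a dashed line of equal difference. The maltose and thiamine genes lie near the line, while the PAU genes and many stress genes lie below it, with medians of 0.97 and 0.62 in culture a against 0.22 and 0.22 in culture b.

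Over all 626 probes that rose, the a and b pairs were more alike, with medians of 0.39 and 0.35. In 89 of them the a difference was at least 2 times the b difference, and in 34 the reverse held. For the 316 that fell the medians were -0.24 and -0.25, with 23 and 31 probes so unequal. Whether the excess in R40A a belongs to that culture, to its dye or to the arrays was not tested.

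The share of genes that rose was larger near chromosome ends than in the rest of the genome. Of 77 genes within 10 kb of an end 33.8% rose and 0 fell, and of 90 genes between 10 and 20 kb 42.2% rose and 4.44% fell. Between 20 and 40 kb the share that rose was 14.5%, and beyond 80 kb it was 7.96%. Within 20 kb, 64 of 165 distinct genes rose and 4 fell, with a median log2 difference of 0.14, and that median was 0.14 in the a pair and 0.17 in the b pair. With external control centring 22 of these genes rose. SOR2, a sorbitol dehydrogenase with a near-identical copy, read 0.83 and 0.91 in R40A and -0.13 and -0.26 in hht2-wt (1.06 ± 0.09, adjusted p = 4.13e-06), and it stands in this group with MAL12, MCH2 and THI11. Setting aside the genes that belong to any other list described here left 112, of which 33 rose and 1 fell, with a median of 0.08. Among 10 COS genes, COS111 rose (0.44 ± 0.14) and COS9 fell (-0.43 ± 0.07), but the call of COS111 did not hold when any single one of the 4 arrays was left out. Without R40A a the number within 20 kb that rose was 29, and without hht2-wt a 34. Set against hht2-wt, the median within 20 kb was 0.20 in the H3 mutant G44A and 0.23 in N108A. Directly, 50 of the 165 were lower in R40A than in G44A and 7 higher, against 11.6% and 9.31% of all probes. Set directly against N108A, 26 were lower in R40A and 8 higher, against 8.66% and 6.37% of all probes.

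The share called higher was also larger among dim probes, and genes near the ends were dim. The mean log2 signal had a median of 7.60 within 10 kb and 9.07 beyond 80 kb. In the dimmest quintile of all probes 14.3% rose, and in the brightest quintile 5.48%. Shares by distance were not compared among probes of matched signal. The part of signal in the pattern by distance was not tested.

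**Figure D3:**
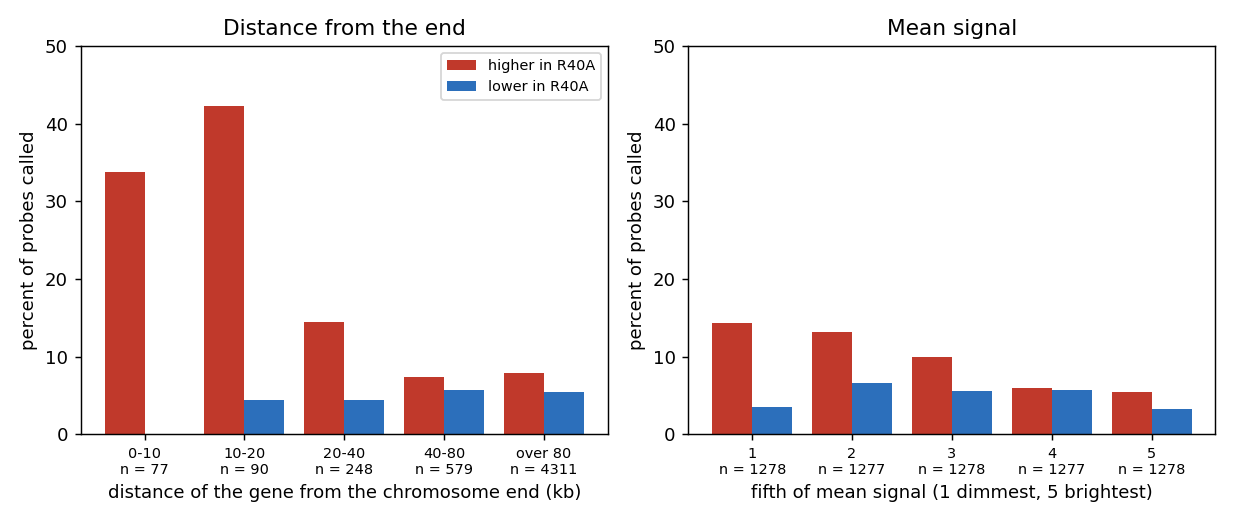
Percent of probes called higher (red) and lower (blue) in R40A by distance of the gene from the chromosome end in kb (left) and by quintile of mean signal over all arrays (right), with the number of probes under each pair of bars. The share that rose is 33.8% and 42.2% in the 2 bins nearest the end and 7.96% beyond 80 kb, and it goes from 14.3% in the dimmest quintile to 5.48% in the brightest.

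Cell wall and mating genes gave single large changes. TIP1, a cell wall mannoprotein, read 0.43 and 0.23 in R40A and -0.77 and -0.71 in hht2-wt (1.07 ± 0.07, adjusted p = 3.85e-07). GSC2, the glucan synthase subunit induced by stress and starvation, rose by 0.79 ± 0.15, and the flocculins FLO9 and FLO5 rose by 0.71 ± 0.09 and 0.42 ± 0.07. The cell wall list had 5 rises (13.5%) and 1 fall (2.7%) among 37 members, against 9.8% and 4.95% of all probes. Its median was 0.0042, and the fall was not called when any single array of the 4 was left out. PRM2, a pheromone-regulated membrane protein, read 1.89 and 1.68 against 0.84 and 0.75 (0.99 ± 0.18, 0.00165). SAG1, the alpha-agglutinin gene, stayed far below the reference in both strains but less so in R40A, with -2.68 and -2.42 against -3.42 and -3.18 (0.75 ± 0.06, adjusted p = 1.54e-06). STE3, the a-factor receptor of alpha cells, rose by 0.32 ± 0.08, a call that did not hold when R40A b or hht2-wt b was left out (0.20 without hht2-wt b), while MF(ALPHA)1 (-0.02 ± 0.11) and MF(ALPHA)2 (0.37 ± 0.13) were not called. STE14, which methylates a-factor, fell by 0.36 ± 0.07.

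Meiotic genes, which dividing haploid cells keep low, rose at 18 of 52 (34.6%) and fell at 2 (3.85%), against 9.8% and 4.95% of all probes. With external control centring 2 of them rose. RED1, a protein of the meiotic chromosome axis, read 0.91 and 0.79 in R40A and 0.25 and 0.11 in hht2-wt (0.67 ± 0.09, adjusted p = 0.000194). MSH5 (0.54 ± 0.07), DMC1 (0.51), HOP1 (0.46) and ZIP1 (0.40), which act in meiotic recombination and pairing, rose with DIT1 (0.65) and DIT2 (0.49), which build the outer spore wall. The median of the list was 0.12, with 0.11 in both the a and the b pair. SSP1, for the shape of the spore membrane, went the other way, with -0.53 and -0.52 in R40A against 0.10 and -0.05 in hht2-wt (-0.55 ± 0.08, 0.000254). SUM1, a repressor of middle meiotic genes, fell by 0.29, a call that held only without hht2-wt a among the leave-one-out fits (-0.16 without hht2-wt b). These probes were dim, with a list median signal of 6.72, and 9 members rose without R40A a.

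The DNA damage list had 7 rises (33.3%) and 1 fall (4.76%) among 21 members, against 9.8% and 4.95% of all probes, with a list median of 0.16. RNR3, the damage-induced subunit of ribonucleotide reductase, read 1.29 and 1.29 in R40A against 0.74 and 0.71 in hht2-wt (0.57 ± 0.11, adjusted p = 0.00247). RNR2 (0.41 ± 0.06) and RNR4 (0.34 ± 0.07), subunits of the same enzyme, and DDI2 (0.45 ± 0.06) and DDI3 (0.43), near-identical damage-inducible genes, also rose. Without R40A a, 4 of the list rose, DDI3 no longer among them, and with median centring 3 did. The fall was that of DDI1 (-0.17), a call lost whichever of the 4 arrays was left out. With external control centring limma called 0 of the list, with 5 higher at an unadjusted p under 0.05.

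Metal and phosphate genes were mixed. The copper and zinc, iron and phosphate lists had 27.8%, 22.2% and 23.8% of their members higher, against 9.8% of all probes. Their shares lower were 11.1%, 3.7% and 9.52%, against 4.95% of all probes. ZRT1, the high-affinity zinc transporter, read 1.18 and 1.53 in R40A and 0.25 and 0.19 in hht2-wt (1.13 ± 0.20, adjusted p = 0.0017). CUP1-2, the copper metallothionein, read -0.61 and -0.76 against 0.11 and -0.09 (-0.69 ± 0.13, 0.00311). CUP1 is a tandem repeat, so this level can move with the number of copies, which was not measured. CTR3, a copper transporter (0.44 ± 0.09), and 6 of 27 iron regulon genes rose, FRE2, a ferric reductase, by the most (0.56 ± 0.06), while 1 iron gene, TIS11, fell by 0.33. The call of TIS11 was lost whichever of the 4 arrays was left out, and that of CTR3 without R40A b or hht2-wt a. Of 18 copper and zinc genes 5 rose, a number that was 2 without R40A a, 2 without R40A b and 1 without hht2-wt a. By limma 0 iron genes rose with external control centring, with 4 higher at an unadjusted p under 0.05. In the phosphate regulon PHO89, a phosphate transporter (0.59 ± 0.06), and VTC3, for polyphosphate (0.37 ± 0.05), rose among 5 of 21, and PHM6, a gene induced by low phosphate, read -0.46 and -0.34 against 0.15 and 0.18 (-0.56 ± 0.05, 2.92e-06).

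The falls were smaller and included amino acid and one-carbon enzymes. LYS1, the last enzyme of lysine synthesis, read 0.06 and -0.04 in R40A and 0.48 and 0.55 in hht2-wt (-0.50 ± 0.08, adjusted p = 0.000564). HIS2, for histidine synthesis, read -0.61 and -0.67 against -0.18 and -0.11 (-0.49 ± 0.06, 0.000141). In the Gcn4 list of amino acid synthesis, 9 of 49 members fell (18.4%, against 4.95% of all probes) and 1, HIS4, rose by 0.28. HIS5, HIS6 and HIS7 were among the falls, with ILV2, ARO4, TRP2 and ORT1. The list median was -0.10. Without R40A a, R40A b or hht2-wt a 6 members fell, and without hht2-wt b 4 did. Of these 7 genes HIS7 was called in each of these fits and ILV2 in none, and ORT1 was -0.09 without R40A b.

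In the list of serine, glycine, one-carbon and purine synthesis 6 of 21 members fell (28.6%, against 4.95% of all probes) and 0 rose. GCV2, a subunit of the glycine cleavage system, read 0.10 and -0.03 in R40A and 0.59 and 0.47 in hht2-wt (-0.49 ± 0.08, adjusted p = 0.000772). GCV3 (-0.38 ± 0.10) and GCV1 (-0.30 ± 0.07), its other named subunits in the list, fell with SHM2, the cytosolic serine hydroxymethyltransferase (-0.45 ± 0.09). SRY1, a serine racemase relative, read -0.06 and -0.15 against 0.44 and 0.41 (-0.53 ± 0.07, 0.000234). Without R40A a 1 member of the list fell and SHM2, GCV1 and GCV3 were not called, and without hht2-wt a or hht2-wt b 3 fell. CHA1, which breaks down serine and threonine, fell by 0.42 ± 0.12, a call lost without R40A a, hht2-wt a or hht2-wt b.

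In NAD synthesis 3 of 14 members were lower (21.4%) and 2 higher (14.3%), against 4.95% and 9.8% of all probes. BNA6 read -0.60 and -0.61 in R40A and -0.12 and -0.13 in hht2-wt (-0.49 ± 0.06, adjusted p = 0.000196), and NPT1, of the salvage path from nicotinic acid, fell by 0.38 ± 0.05. BNA4, an earlier step of the path from tryptophan than BNA6, rose by 0.45 ± 0.08. CDC26, a small subunit of the anaphase-promoting complex, had the largest fall, with -1.06 and -1.03 in R40A and -0.29 and -0.36 in hht2-wt (-0.72 ± 0.07, 1.24e-05). Of the complex's other 14 subunits and regulators, CDC23 rose by 0.20 ± 0.06, a call lost without any single array of the 4, and 13 were not called.

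Several large groups held few calls. Heat-shock factor targets had 0 of 24 members called by limma, with a median of 0.03 and 3 at an unadjusted p under 0.05, and the member with the lowest p, BTN2, differed by 0.29 ± 0.10 (adjusted p = 0.0604). Proteasome genes had 0 of 33 and G2/M genes 0 of 31 called by limma, each with 3 at an unadjusted p under 0.05, while of 120 cytosolic ribosomal protein genes 1 fell. Ribosome biogenesis genes fell at 3 of 79 (3.8%, against 4.95% of all probes) with a median of -0.09. At an unadjusted p under 0.05, 15 of them were lower and 1 higher, against 781 lower and 1038 higher of all 6388 probes. Their median was -0.17 in the a pair and -0.03 in the b pair. Among 50 genes for histone-modifying enzymes and silencing, HDA3, of the Hda1 deacetylase complex, rose (0.50 ± 0.10, not called without hht2-wt b) and 5 fell, DOT1, the H3 lysine 79 methyltransferase (-0.19 ± 0.05), SAS3 (-0.27 ± 0.07) and ADA2 (-0.16 ± 0.05) among them. Without R40A a, R40A b or hht2-wt b limma called 0 of the list lower, with 7, 6 and 3 lower at an unadjusted p under 0.05. The medians of the 16 chromosomes lay between -0.02 and 0.02.

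**Figure D4:**
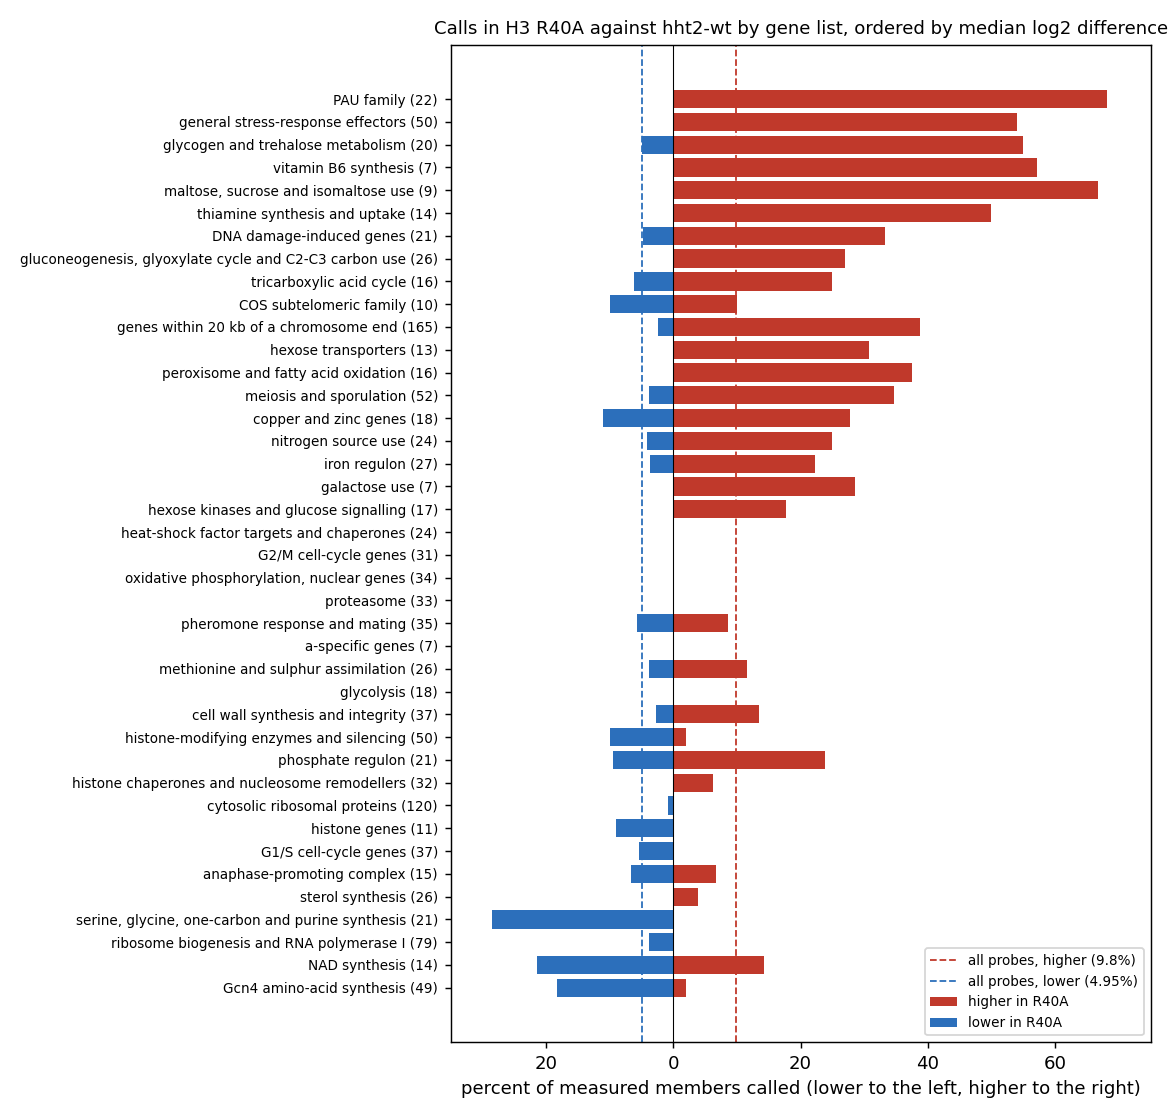
Percent of measured members called higher (red, right) and lower (blue, left) in R40A for each gene list with at least 7 measured members (number in parentheses), ordered by median log2 difference, with dashed lines at the shares over all 6388 probes (9.8% higher, 4.95% lower). The PAU, stress, glycogen, vitamin B6, maltose and thiamine lists have at least 50% of their members higher, and the Gcn4 list has 18.4% lower.

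R40A was tested directly against G44A, the mutant with the nearest residue, with no control array on either side. At 1337 probes (20.9%) the strains differed, 595 higher in R40A (9.31%) and 742 lower (11.6%). Of the 626 probes that rose against hht2-wt, 261 were lower in R40A than in G44A and 22 higher. Of the 50 stress effectors 40 were lower in R40A and 0 higher, and of 20 glycogen and trehalose genes 13 were lower and 0 higher. HSP12 (-1.41 ± 0.30), MSC1 (-1.22 ± 0.19) and CRG1 (-1.19 ± 0.10) differed most among the lower genes. HSP82, of the heat-shock list, was lower in R40A (-0.66), a list in which 16 of 24 were lower, and among ribosome biogenesis genes 32 of 79 were higher in R40A and 0 lower. Of the PAU family 1 of 22 was higher and 1 lower, but 13 were higher and 0 lower without R40A b. Without R40A b the stress effectors lower in R40A numbered 13, the glycogen and trehalose genes 3 and the ribosome biogenesis genes higher in R40A 5, and without G44A a these numbers were 25, 4 and 15. YHB1, flavohaemoglobin, had the largest excess over G44A among named genes (0.97 ± 0.17, adjusted p = 0.00174), and it was also higher than in hht2-wt (0.74 ± 0.17), a call that did not hold without R40A a or without hht2-wt b. AAH1, DFR1, UTR2 and HNM1, higher than in G44A by 0.70 to 0.72, were not called against hht2-wt. The number of probes that differed was 399 without R40A b, and the calls of HSP12 and of COS10 (0.76 ± 0.16) were lost without that array or G44A a.

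Against N108A, a substitution in the histone-fold part of H3, 960 probes differed (15%), 407 higher in R40A (6.37%) and 553 lower (8.66%). Of the 626 probes that rose against hht2-wt, 87 were higher in R40A than in N108A, 59 were lower and the others were not called. DAL4 was higher than in N108A by 0.54 (adjusted p = 2.95e-05), and THI11, MAL33 and GND2, a stress-induced enzyme of the pentose phosphate path, were lower (-0.44, -0.65 and -0.65). For MAL12 the log2 difference between the strains was 0.12 and for SNZ1 -0.30, both not called. Of the 316 that fell, 96 were lower than in N108A and 2 higher. CHA1 (-1.48), SER3, of serine synthesis (-1.41), COS12 (-1.12), IRC18 (-1.04), BNA2 (-0.99) and LYS1 (-0.99) were the largest differences below N108A among named genes. YCP4 (0.75), a flavodoxin-like protein, and ARG3 (0.70), of arginine synthesis, were the named genes furthest above N108A. The number of probes that differed was 341 without R40A b, 381 without N108A a, 637 without N108A b and 556 without R40A a.

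**Figure D5:**
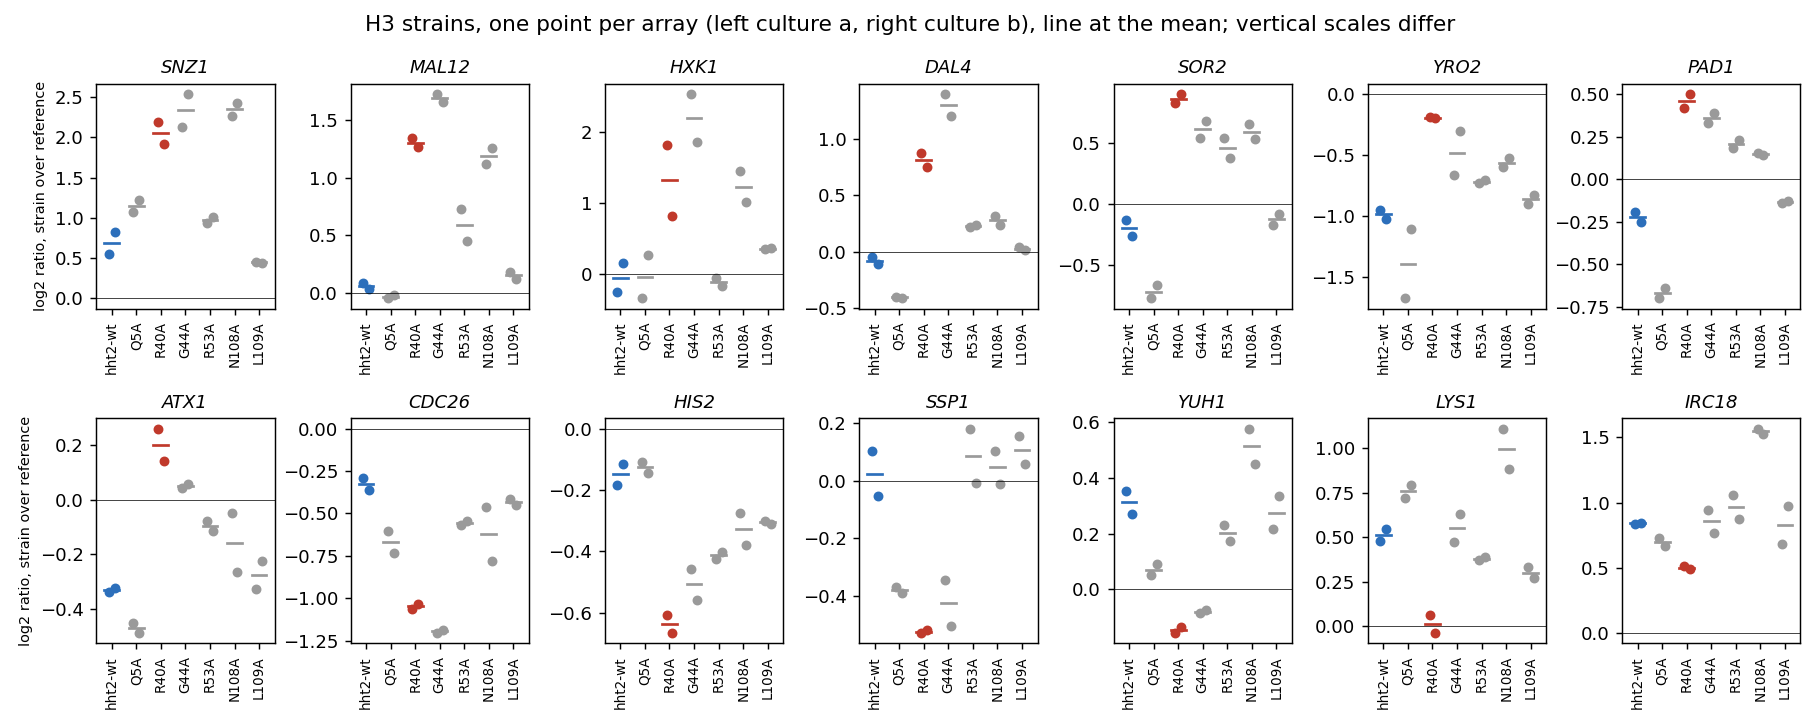
Log2 ratio of strain over common reference for 14 genes in hht2-wt (blue), R40A (red) and the 5 other H3 mutants (grey), with 1 point per array (culture a left, culture b right) and a line at the mean of the 2 arrays. SNZ1, MAL12 and HXK1 are high in R40A, G44A and N108A, while SOR2, YRO2, PAD1 and ATX1 are highest in R40A and LYS1 and IRC18 lowest.

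Against the mean of the 5 other H3 mutants (Q5A, G44A, R53A, N108A and L109A), R40A differed at 405 probes (6.34%), 279 higher (4.37%) and 126 lower (1.97%). SOR2 was higher by 0.70 ± 0.07 (adjusted p = 6.48e-05), and its R40A values of 0.83 and 0.91 lay above all 10 arrays of the other mutants, which ran from -0.78 to 0.69. PAD1, which acts on phenolic acids, read 0.42 and 0.50 against -0.70 to 0.39 (0.48 ± 0.04, 1.29e-05). YRO2, a membrane protein, read -0.19 and -0.20 against -1.67 to -0.30 (0.61 ± 0.11), and ATX1, a copper chaperone, read 0.26 and 0.14 against -0.49 to 0.06 (0.39 ± 0.06). Genes were named from this contrast only where neither R40A array overlapped the 10 others, so that gap was set by the choice of genes. Of the vitamin B6 genes 4 of 7 and of the thiamine genes 6 of 14 were higher than the mean of the others, and of the stress effectors 2 of 50. Without R40A a 1 of the vitamin B6 and 1 of the thiamine genes were. Against G44A alone 0 genes of either list were higher in R40A and 1 of each was lower. Against N108A alone 0 vitamin B6 genes were called, and 1 thiamine gene was higher and 1 lower. Set against hht2-wt, the vitamin B6 median was 0.31 in R40A, 0.38 in G44A and 0.33 in N108A. The thiamine median was 0.29, 0.31 and 0.22 in the same order.

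The genes below the other H3 mutants were chosen by the same rule. LYS1 read 0.06 and -0.04 in R40A against 0.27 to 1.11 (-0.59 ± 0.06, adjusted p = 6.57e-05). IRC18 read 0.52 and 0.49 against 0.67 to 1.57 (-0.48 ± 0.07, 0.00214), YUH1, a ubiquitin hydrolase, read -0.16 and -0.14 against -0.08 to 0.58, and SSP1 read -0.53 and -0.52 against -0.50 to 0.18. In all, 16 probes rose against hht2-wt, were called above the mean of the other mutants and read above all 10 of their arrays, and 18 did so in the downward direction. Over all 6388 probes, 49 read above all 10 and 57 below. Without R40A a the number that differed from the mean was 76, and without R40A b 161; the calls of YRO2, ATX1, IRC18 and SSP1 were lost without R40A a and that of HIS2 without R40A b.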

How the data were processed

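The authors deposited 1 scanner file of spot intensities per array, per the file headers with foreground and background intensities in both channels and no normalization. Their deposited value table holds log2 ratios and their deposited result table log2 fold changes and Benjamini-Hochberg corrected p-values, made, per the deposited protocols, by print-tip loess (span 0.4, background not subtracted), a gene-specific dye-bias correction and limma 2.12.0. That result table lists 6182 probes for R40A, 911 higher and 765 lower at a corrected p below 0.05.

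Here the scanner intensities of 22 arrays were corrected with normexp (offset 50), normalized by loess within each array (span 0.3, control spots at weight 0), turned to strain over reference by the labelled dyes, and averaged over the 2 spots of each probe, in R 4.3.3 with limma 3.58.1. Median channel intensity was 467 and 492 in R40A a and b and 366 and 599 in hht2-wt a and b, and between 62 and 200 probes of these arrays were not above background in the strain channel. The number of arrays limits the precision. One model held 11 strain means and a term for dye, which is also the culture letter (10 residual degrees of freedom), and 4 contrasts were tested with empirical Bayes moderation, at an adjusted p below 0.05 over 6388 probes. Cultures of the same letter deviated together: the difference of culture a from culture b correlated over 0.1 in 52 of 55 pairs of strains (median 0.387, lowest -0.125), and dye and culture cannot be told apart.

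Probes were named through the platform annotation and RefSeq's R64 gene table: 5266 by current symbol, 58 by synonym, 1062 unnamed and 2 with several genes. Of probes sharing a symbol the brighter was used. Named genes were the 15 largest rises and 15 largest falls whose cultures did not overlap those of hht2-wt. In each other contrast they were the 6 largest each way whose R40A arrays did not overlap the arrays compared. Added to these were up to 4 members of each of 38 gene lists with the smallest adjusted p, and the histone H3 and H4 genes. Other members are named beside a count of their list, or because they fell against its direction, and were picked after their values were seen. The comparison and the lists were chosen with earlier results of these data known. Counts and figures were made with Python 3.11.15, pandas 2.3.3 and numpy 2.4.6, and the fit was tested on simulated data. The alternatives were no background subtraction, print-tip loess, median centring, centring on external control spots, the authors' value table, a filter on dim probes, no term for dye, only the arrays compared, other control strains, and leaving out each array in turn. A description of promoter motifs was not run, since no promoter sequence was used here.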

Additional observations from a re-analysis of the deposited data

Results flagged for a closer look

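For 5 named genes R40A and N108A changed in opposite directions against hht2-wt, each called there, and the strains differed in the direct contrast without control arrays (R40A minus N108A). CHA1, the serine and threonine deaminase, was -0.42 in R40A and 1.06 in N108A, a direct log2 difference of -1.48 (adjusted p = 6.96e-06). IRC18 was -0.34 and 0.71, a direct difference of -1.04 (1.94e-05). LYS1, of lysine synthesis, was -0.50 and 0.49, a direct difference of -0.99 (6.13e-06). YUH1, a ubiquitin hydrolase, was -0.46 and 0.20, a direct difference of -0.66 (1.95e-05). STE14, which methylates a-factor, was -0.36 and 0.21, a direct difference of -0.57 (0.000349). The R40A calls against hht2-wt did not hold for IRC18 when any single one of the 4 arrays was left out, nor for CHA1 without R40A a, hht2-wt a or hht2-wt b. Both strains are set against the same 2 hht2-wt arrays. The 5 genes were picked from the named genes by these calls, the direct one included. The direct p-values are therefore no separate test of them. Groups of 2 cultures are too small for a check of single outlying arrays.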

How the results depend on the processing

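For R40A against hht2-wt 942 probes were called (14.7% of all gene probes). With median centring it was 484 (7.58%), with centring on external control spots 102 (1.6%), with no replicate block (no term for dye and culture letter) 529 (8.28%) and with only the arrays compared 703 (11%). With 1 array left out it was 424 to 704 (6.64% to 11.02%), and other settings gave 860 to 1387. For R40A against G44A (1337 called) the same settings gave 669 (10.5%), 25 (0.391%), 656 (10.3%), 378 (5.92%) and 399 to 1280 (6.25% to 20.04%). For R40A against N108A (960 called) they gave 419 (6.56%), 12 (0.188%), 409 (6.4%), 733 (11.5%) and 341 to 637 (5.34% to 9.97%). For R40A against the mean of the 5 other H3 mutants (405 called) they gave 76 higher and 32 lower (1.69%), 1 (0.0157%), 139 (2.18%), 239 (3.74%) and 76 to 624 (1.19% to 9.77%). Of the calls against hht2-wt, the share that was higher was 66.5%, and 79.4% with no replicate block, 79.2% with only the arrays compared and 100% with external controls. Of the 942 calls, 0 turned direction under any setting tried. All 30 genes with the largest rises and falls kept their sign. Their calls numbered 15 with external controls, where the median of all probes moved to 0.07, and 27 to 30 under the other settings. The call of HXK1 did not hold when either R40A a or hht2-wt a was left out. Calls were also lost for PAU2 with median centring, with no replicate block, with only the arrays compared, or without R40A a, hht2-wt a or hht2-wt b, for SHM2 without R40A a and for COS9 with no replicate block. With 1 array left out or only the arrays compared, fewer arrays entered the fit. Why the counts changed was not tested for any setting. The filter on dim probes kept 25 of 26 methionine genes, 35 of 37 cell wall genes and 163 of 165 genes within 20 kb of a chromosome end, and every member of the other lists.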

Other observations

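Genes of the tricarboxylic acid cycle rose at 4 of 16 (25%) and fell at 1 (6.25%), against 9.8% and 4.95% of all probes. The median log2 difference of the list was 0.15, against 0.00 (-0.0049) over all probes. MDH1, mitochondrial malate dehydrogenase, read 0.73 and 0.41 in R40A against 0.17 and 0.17 in hht2-wt (0.40 ± 0.09, adjusted p = 0.0104), and LSC2, of succinyl-CoA ligase, rose by 0.30. MDH1 was not called without R40A a or hht2-wt a, and LSC2 was called only without hht2-wt a among the leave-one-out fits. The median was 0.22 in the a pair and 0.07 in the b pair, and without R40A a 1 member rose. CIT1, the main mitochondrial citrate synthase, differed by 0.13 without R40A a and was not called there. FUM1, fumarase, fell by 0.21 (-0.13 and not called without R40A b). In methionine and sulphur assimilation MET5, a subunit of sulphite reductase (0.38 ± 0.06), MET1, which makes its haem cofactor (0.35 ± 0.05), and MET2 (0.22) rose among 26 members, and SAM1, for S-adenosylmethionine, fell by 0.29. That was 11.5% of the list higher and 3.85% lower, against 9.8% and 4.95% of all probes. MET2 was 0.14 and not called without R40A b, and was not called without hht2-wt a, and SAM1 was not called without R40A a or hht2-wt b.

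Among 32 histone chaperones and nucleosome remodellers SWR1, the catalytic subunit of the complex that inserts H2A.Z, rose by 0.32 ± 0.05 (adjusted p = 0.00102) and RLF2, the large subunit of chromatin assembly factor 1, by 0.24 ± 0.06. These 2 were 6.25% of the list, a smaller share than the 9.8% of all probes that rose. Without R40A b or hht2-wt b 1 of them rose. The galactose regulators GAL3 and GAL4 rose by 0.26 and 0.29 among 7 galactose genes, and 0 rose by limma without R40A a, with 2 higher at an unadjusted p under 0.05. GAL4 was also not called without hht2-wt a or hht2-wt b. Among 37 G1/S genes RFC4 (-0.33) and RFC2 (-0.19), subunits of the clamp loader of DNA replication, fell. That was 5.4% of the list, near the 4.95% of all probes that fell. The call of RFC2 did not hold when any single one of the 4 arrays was left out, and that of RFC4 did not hold without hht2-wt a. Among 26 sterol genes 1 (3.85%), HES1, rose by 0.28, a call that held only without R40A b among the leave-one-out fits.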
